A study of Mus musculus with 8 samples.

Results

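A set of 8 genes of cholesterol supply were followed in mouse macrophages: Ch25h, Hmgcs1, Idi1, Fdft1, Sqle, Msmo1, Insig1 and Srebf2. They were chosen by name, 8 of the 30284 genes with a value, and all 8 were among the 13009 genes that reached 1 TPM in 2 or more libraries and were tested. The 8 bulk RNA-seq libraries, in 4 groups of 2, were made from total RNA of macrophages of 7-week-old male mice of the C57BL6 background that were stimulated in the peritoneal cavity. The groups were Saline for 4 h, LPS (lipopolysaccharide, the bacterial cell wall component sensed by TLR4) for 4 h, IFNb (interferon beta, a type I interferon) for 4 h, and LPS+IFNb, in which IFNb was given 4 h before a further 4 h of LPS. The last group was thus sampled 8 h after IFNb, and no group received IFNb and then saline, so the second agent and the longer time cannot be told apart there. The labels name no genetic change in any group and state no dose. Nothing in the labels ties a library to its own animal, so each p-value speaks of the variation between 2 libraries that may be technical.

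Macrophages obtain cholesterol by taking up lipoproteins and by making it from acetyl-CoA. Synthesis is controlled by SREBP transcription factors, which stay in the endoplasmic reticulum with their escort SCAP while INSIG proteins hold the pair there, and which are released and cleaved when sterols run low. 25-hydroxycholesterol, an oxysterol made by the enzyme CH25H, binds INSIG proteins and so lowers SREBP processing. Ch25h is a known interferon-stimulated gene of macrophages, and its product is known for antiviral and anti-inflammatory actions. Of the other genes followed, Hmgcs1, Idi1, Fdft1, Sqle and Msmo1 encode enzymes of the pathway, Insig1 encodes a brake on SREBP release and is itself an SREBP target, and Srebf2 encodes SREBP-2, the main activator of the synthesis genes.

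Promoter sequences are shown for Ch25h, which has no CCAAT box, for Hmgcs1, which has the sterol regulatory element searched for, and for both control genes, Insig1 and Srebf2. They come from a RefSeq table of GRCm38.p6 windows, 250 bases before to 50 bases after each start, which held 6 of the 8 genes and no entry for Sqle or Fdft1, and are cut where the transcribed part begins. Each is written from 5′ to 3′ on the strand of its gene. The windows are chr19:34475165-34475398 on the minus strand for Ch25h, and on the plus strand chr13:119690101-119690350 for Hmgcs1, chr5:28071162-28071362 for Insig1 and chr15:82147019-82147180 for Srebf2. Capitals mark matches to 4 motifs read on both strands: the sterol regulatory element TCACNCCAC, the CCAAT box CCAAT, the interferon-stimulated response element of GAAA, 2 bases of any kind and GAAA, and the NF-kB motif of GGGA, 4 bases of any kind and CC.
Ch25h: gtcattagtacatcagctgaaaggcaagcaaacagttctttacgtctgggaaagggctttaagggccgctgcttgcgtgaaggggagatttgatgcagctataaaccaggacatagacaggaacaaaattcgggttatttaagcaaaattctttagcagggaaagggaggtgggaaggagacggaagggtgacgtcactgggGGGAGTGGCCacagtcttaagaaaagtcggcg
Hmgcs1: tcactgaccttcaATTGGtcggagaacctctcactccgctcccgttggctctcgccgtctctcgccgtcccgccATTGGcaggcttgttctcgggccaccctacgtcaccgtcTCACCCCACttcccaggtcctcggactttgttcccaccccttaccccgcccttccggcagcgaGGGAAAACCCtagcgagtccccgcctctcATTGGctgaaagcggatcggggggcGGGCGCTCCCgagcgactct
Insig1: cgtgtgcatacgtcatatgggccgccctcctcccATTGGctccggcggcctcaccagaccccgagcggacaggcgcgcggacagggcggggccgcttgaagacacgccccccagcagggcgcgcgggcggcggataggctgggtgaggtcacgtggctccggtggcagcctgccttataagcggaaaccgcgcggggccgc
Srebf2: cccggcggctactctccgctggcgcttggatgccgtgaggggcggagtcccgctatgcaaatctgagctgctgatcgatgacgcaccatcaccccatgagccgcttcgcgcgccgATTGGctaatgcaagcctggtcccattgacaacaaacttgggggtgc
The Ch25h window held 1 motif match, the NF-kB motif GGGAGTGGCC with its first base at -48, where -1 is the base before the RefSeq start. In the Hmgcs1 window the sterol regulatory element TCACCCCAC began at -137, and the CCAAT box was found on the opposite strand as ATTGG at -237, -176 and -45. A further ATTGG began at base 11 from the start, past the part shown. The NF-kB motif was also found in the Hmgcs1 window, as GGGAAAACCC at -74 and, on the opposite strand, as GGGCGCTCCC at -20. That last match overlaps a GC box, GGGCGG, at -24 (GC boxes are left in lower case). Over the whole windows of the 6 genes, the CCAAT box was present in all but Ch25h and the interferon element in none. Of 32851 mouse promoter windows of the same length, 37.4% held the CCAAT box, 20.7% the NF-kB motif, 3.44% the interferon element and 1.24% the sterol element. Of 21 cholesterol synthesis enzymes 16 had a window: 15 of these held the CCAAT box, 8 the NF-kB motif, 1 the sterol element and 1 the interferon element. An enzyme was counted if any of its windows held the motif, while the percentages are of single windows, drawn from 27025 genes. The enzyme counts and the percentages are therefore not like for like. These matches describe letters in a short window and do not show binding.

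TPM is a length-corrected transcript abundance that has the same sum in every library, so depth is unknown and a few strongly raised genes lower the values of all others. Across all genes tested, the median log2 difference from saline was -0.38 in LPS, -0.37 in IFNb and -0.62 in LPS+IFNb. Median-ratio scaling, which sets the typical gene to no change, raised these medians by 0.39, 0.34 and 0.61. Differences below are therefore given as deposited and, where marked "rescaled", also after that scaling. A gene is called changed at an adjusted p under 0.05 (limma on log2(TPM + 1), all 8 libraries, Benjamini-Hochberg adjustment over 13009 genes), and errors of log2 differences are standard errors. All 10 macrophage markers, among them Cd68, Csf1r and Lyz2, were at 1 TPM or more in every library. So were 6 of the 8 large peritoneal macrophage markers, among them Cd9 (713 to 1237 TPM) and Fcna (16.6 to 31.0 TPM). The remaining ones, Gata6 (0.862 to 2.11 TPM) and Timd4 (0.427 to 3.37 TPM), were near the floor. In Saline replicate 2, 53928 transcripts had a value above 0, and 46998 to 50489 had one in the rest.

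Ch25h rose with either stimulus and was highest when IFNb preceded LPS. The gene is a single exon at chromosome 19, bases 34473778 to 34475164 on the minus strand (GRCm38), with 1 transcript. It stood at 0.144 and 0.318 TPM in the 2 saline libraries, 7.53 and 8.18 TPM in LPS, 12.9 and 7.87 TPM in IFNb, and 26.4 and 18.9 TPM in LPS+IFNb. Each stimulated library was above both saline libraries, the LPS and IFNb libraries overlapped, and both LPS+IFNb libraries lay above all others. The libraries with more Ch25h in their groups were Saline replicate 2, LPS replicate 2, IFNb replicate 1 and LPS+IFNb replicate 1. Each also had the higher sum of mesothelial and fibroblast markers (75.7 to 105 TPM, against 33.3 to 44.4 TPM in its partner). The sums of monocyte, of neutrophil, and of mast cell and eosinophil markers were higher there too, and that of B cell markers was lower. Sums of the other lists were mixed. Among the large peritoneal macrophage markers Prg4, Vsig4, Alox15, Fcna and Gata6 were higher there in every group, Icam2 was lower in every group, and Cd9 and Timd4 were mixed. Among the monocyte markers Fn1, F13a1 and Vcan were higher there in every group, and Ly6c2 was lower in every group. Ly6c2 was at 9.81 and 6.04 TPM in saline, 22.9 and 14.6 in LPS, 67.1 and 110 in IFNb, and 40.1 and 59.4 in LPS+IFNb. The other monocyte markers were mixed. The part of these differences in the Ch25h values was not tested. Against saline the mean TPM was 34.0-fold higher in LPS, 45.0-fold higher in IFNb and 98.0-fold higher in LPS+IFNb, ratios that rest on a saline mean of 0.231 ± 0.123 TPM (SD, n = 2). On the log2(TPM + 1) scale, which understates the change of a gene this low, the rises were 2.85 ± 0.25 in LPS (limma adjusted p = 0.000263; rescaled 2.97), 3.18 ± 0.25 in IFNb (adjusted p = 0.000169; rescaled 3.23) and 4.25 ± 0.25 in LPS+IFNb (adjusted p = 2.81e-05; rescaled 4.62). Few genes rose more: 1.85%, 1.74% and 1.21% of the genes tested had a larger difference in the 3 comparisons.

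LPS and IFNb alone were not separated in their Ch25h level, at -0.33 ± 0.25 for LPS minus IFNb (95% interval -0.94 to 0.28, limma adjusted p = 0.362; rescaled -0.27). The LPS+IFNb level was higher than LPS by 1.40 ± 0.25 (limma adjusted p = 0.00742; rescaled 1.65) and higher than IFNb by 1.07 ± 0.25 (adjusted p = 0.0181; rescaled 1.39). The second of these calls was lost without IFNb replicate 2 (0.75) or LPS+IFNb replicate 1 (0.84). As an interaction, the log2 response to both agents was smaller than the sum of the single responses by 1.78 (-1.78 ± 0.36, limma adjusted p = 0.0344; rescaled -1.58, adjusted p = 0.0428). On the linear scale the picture differs: adding the single increments to saline gives 18.0 TPM, and the LPS+IFNb libraries averaged 22.7 ± 5.27 TPM (SD, n = 2). The interaction call was lost in 10 of 15 alternatives, with values from -2.10 to -1.45 when a library was left out. Those losses came on leaving out any 1 library other than IFNb replicate 2 (whose removal gave the -2.10), under upper-quartile scaling (-1.58), without a filter and with the replicate number as a block (both at the same -1.78).

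**Figure D1:**
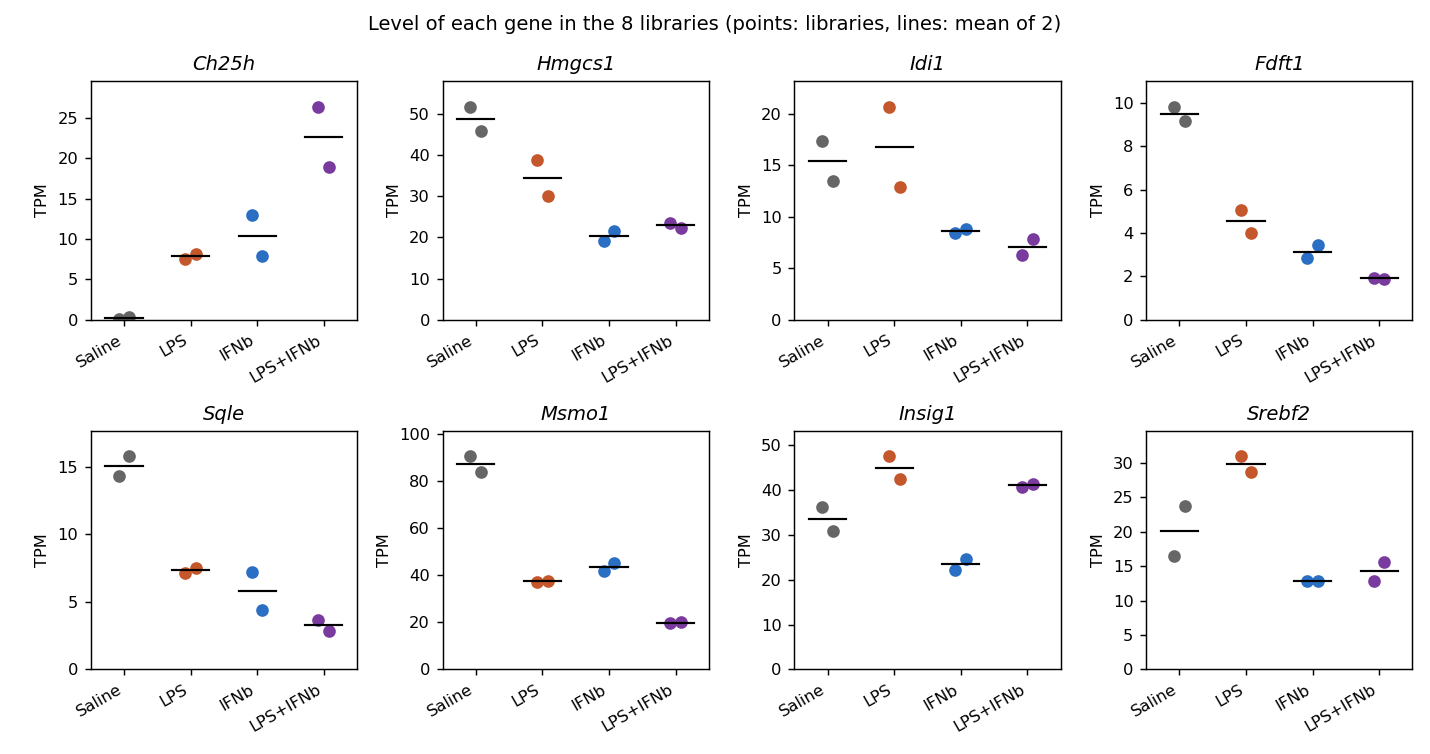
TPM (vertical axis, linear, from 0) of each of the 8 genes in the 4 groups, with a point per library and a line at the mean of 2. Ch25h climbs from 0.144 and 0.318 TPM in saline to 18.9 and 26.4 TPM in LPS+IFNb, while Fdft1, Sqle and Msmo1 are highest in saline and lowest in LPS+IFNb.

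The 5 enzymes followed are described in the order of the pathway. Hmgcs1 (chromosome 13, 119690379 to 119708260, plus strand), the cytosolic HMG-CoA synthase at the start of the mevalonate pathway, stood at 51.7 and 45.7 TPM in saline, 38.8 and 30.1 TPM in LPS, 19.2 and 21.5 TPM in IFNb, and 23.5 and 22.4 TPM in LPS+IFNb. All stimulated libraries were below both saline libraries, and the IFNb and LPS+IFNb libraries lay close together. The fall in IFNb was -1.22 ± 0.14 (limma adjusted p = 0.000858; rescaled -0.83, adjusted p = 0.0135), and that in LPS+IFNb was -1.05 ± 0.14 (adjusted p = 0.000707), which rescaling took to -0.35 (adjusted p = 0.158). In LPS the fall was -0.50 ± 0.14 (limma adjusted p = 0.0251), near the median of all genes. Rescaled it was -0.05 (adjusted p = 0.874), and the call was also lost without Saline replicate 1 (-0.41), without LPS replicate 2 (-0.32) and when only the 2 groups compared were fitted. LPS+IFNb and IFNb were not separated (0.17 ± 0.14, 95% interval -0.18 to 0.51, limma adjusted p = 0.389; rescaled 0.48).

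Idi1 (chromosome 13, 8885501 to 8892451, plus strand) encodes the isomerase that makes dimethylallyl diphosphate, the starter of isoprenoid chains. Its levels were 17.4 and 13.5 TPM in saline, 20.7 and 12.9 TPM in LPS, 8.42 and 8.80 TPM in IFNb, and 6.28 and 7.84 TPM in LPS+IFNb. The saline and LPS libraries overlapped and the groups that received IFNb were below them. LPS against saline gave 0.09 ± 0.24 (95% interval -0.48 to 0.66, limma adjusted p = 0.773; rescaled 0.52, adjusted p = 0.173). As deposited, the sign was set by LPS replicate 1 (-0.23 without it) and by Saline replicate 2 (-0.08 without it). The fall was -0.76 ± 0.24 in IFNb (limma adjusted p = 0.0340) and -1.02 ± 0.24 in LPS+IFNb (adjusted p = 0.00756). Rescaled these were -0.40 and -0.37, neither of them called. In IFNb the call was also lost without Saline replicate 1 (-0.59), IFNb replicate 1 (-0.74) or IFNb replicate 2 (-0.79), and with no filter.

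Fdft1 (chromosome 14, 63145150 to 63179578, minus strand), squalene synthase, is the step that commits farnesyl diphosphate to sterols. It was at 9.84 and 9.17 TPM in saline, 5.08 and 4.01 TPM in LPS, 2.84 and 3.43 TPM in IFNb, and 1.94 and 1.89 TPM in LPS+IFNb. No 2 groups overlapped, and the order was saline, LPS, IFNb, LPS+IFNb. Falls from saline were -0.93 ± 0.16 in LPS (limma adjusted p = 0.00318), -1.35 ± 0.16 in IFNb (adjusted p = 0.000831) and -1.85 ± 0.16 in LPS+IFNb (adjusted p = 0.000105). Rescaled they were -0.52 (adjusted p = 0.0642), -0.99 (adjusted p = 0.00599) and -1.27 (adjusted p = 0.00113). LPS minus IFNb (0.42 ± 0.16, limma adjusted p = 0.0782; rescaled 0.48) did not pass the test.

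Sqle (chromosome 15, 59315077 to 59331192, plus strand) encodes squalene epoxidase, the first oxygen-requiring step and a second point of flux control. Its TPM was 14.3 and 15.8 in saline, 7.10 and 7.54 in LPS, 7.17 and 4.39 in IFNb, and 3.69 and 2.86 in LPS+IFNb. Saline was above every stimulated library, LPS and IFNb overlapped, and LPS+IFNb was below all others. The falls were -0.95 ± 0.22 in LPS (limma adjusted p = 0.0106; rescaled -0.52, adjusted p = 0.0956), -1.27 ± 0.22 in IFNb (adjusted p = 0.00368; rescaled -0.90) and -1.91 ± 0.22 in LPS+IFNb (adjusted p = 0.000322; rescaled -1.29). The LPS call was also lost without LPS replicate 1 (-0.91). The transcript Sqle-201 carried 87.2% of the TPM of the gene over all libraries, and IFNb replicate 1, the higher IFNb library, was the one in which its share was lowest, at 58.2%.

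Msmo1 (chromosome 8, 64718139 to 64733792, minus strand), the methylsterol monooxygenase that acts late in the pathway, had the highest TPM summed over transcripts of the 5 enzymes in saline. Its longest protein-coding form alone, at 31.7 and 26.4 TPM there, was below Hmgcs1, at 51.7 and 45.7 TPM. Summed, Msmo1 stood at 90.7 and 84.0 TPM in saline, 37.2 and 37.7 TPM in LPS, 41.7 and 45.4 TPM in IFNb, and 19.8 and 20.0 TPM in LPS+IFNb. No 2 groups overlapped, although LPS and IFNb did not differ in the test (-0.21 ± 0.09, 95% interval -0.43 to 0.00067, limma adjusted p = 0.108; rescaled -0.14). Falls from saline were -1.20 ± 0.09 in LPS (limma adjusted p = 0.000126; rescaled -0.74), -0.99 ± 0.09 in IFNb (adjusted p = 0.000283; rescaled -0.60) and -2.08 ± 0.09 in LPS+IFNb (adjusted p = 6.70e-06; rescaled -1.38). All 3 falls were called after rescaling too. The TPM of Msmo1 was divided among 7 transcripts. Msmo1-201, the longest protein-coding form at 2044 bases, held 32.4% of the TPM of the gene and followed the same course, at 31.7 and 26.4 TPM in saline, 13.8 and 9.21 TPM in LPS, 14.7 and 15.0 TPM in IFNb, and 5.49 and 5.55 TPM in LPS+IFNb. The short Msmo1-205 of 342 bases held 33.0% and a noncoding transcript of 1329 bases held 28.1%.

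The control genes Insig1 and Srebf2 were called higher in LPS and lower in IFNb, against saline. Insig1 (chromosome 5, 28071363 to 28078662, plus strand) was at 36.1 and 30.7 TPM in saline, 47.4 and 42.3 TPM in LPS, 22.2 and 24.7 TPM in IFNb, and 40.7 and 41.2 TPM in LPS+IFNb. The LPS libraries were the highest and the IFNb libraries the lowest, with no overlap between any 2 groups. LPS raised it by 0.42 ± 0.12 (limma adjusted p = 0.0229; rescaled 0.86, adjusted p = 0.00662). IFNb alone was lower by -0.49 ± 0.12 (adjusted p = 0.0130), a call that rescaling ended (-0.11, adjusted p = 0.666). In LPS+IFNb the difference from saline was 0.29 ± 0.12 and was not called (limma adjusted p = 0.0624), but the rescaled value of 0.99 was (adjusted p = 0.00235), as was the value without Saline replicate 1 (0.40). LPS+IFNb was above IFNb by 0.78 ± 0.12 (adjusted p = 0.00381; rescaled 1.10) and not separated from LPS (-0.13 ± 0.12, 95% interval -0.41 to 0.15, adjusted p = 0.451; the sign turned on rescaling, 0.13). The LPS call was lost without Saline replicate 2 (0.30), without LPS replicate 1 (0.34) and with only the 2 groups compared, and the IFNb call without Saline replicate 1 (-0.38) or IFNb replicate 1 (-0.42).

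Srebf2 (chromosome 15, 82147181 to 82205379, plus strand) was at 16.5 and 23.7 TPM in saline, 31.0 and 28.6 TPM in LPS, 12.9 and 12.9 TPM in IFNb, and 12.9 and 15.7 TPM in LPS+IFNb. LPS was above all other groups, the saline pair was spread wide, and the 2 groups that received IFNb overlapped at the bottom. LPS minus IFNb was 1.15 ± 0.18 (limma adjusted p = 0.00295; rescaled 1.21), and LPS+IFNb minus LPS was -1.02 ± 0.18 (adjusted p = 0.00679; rescaled -0.77, adjusted p = 0.0100). Against saline the rise in LPS (0.57 ± 0.18, adjusted p = 0.0359; rescaled 1.01) and the fall in IFNb (-0.58 ± 0.18, adjusted p = 0.0342; rescaled -0.21, adjusted p = 0.341) were less firm. The former was lost in 7 of 16 alternatives (0.32 without Saline replicate 1, 0.51 without LPS replicate 1, 0.62 without LPS replicate 2, and the unchanged 0.57 without either IFNb library, with no filter and in the fit to those groups alone). The latter was lost in 9 of 16: -0.33 without Saline replicate 2, -0.58 without either IFNb library, without either LPS library, with no filter and in the fit to those groups alone, and under both scalings. LPS+IFNb against saline (-0.45 ± 0.18, adjusted p = 0.0616) was not called and turned sign on rescaling (0.23), but was called lower without Saline replicate 1 (-0.70).

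Counted over the 8 genes in LPS against saline, 3 were higher (Ch25h, Insig1, Srebf2) and 4 lower (Hmgcs1, Fdft1, Sqle, Msmo1). Among all genes tested, 54.1% were called there, 12.8% higher and 41.3% lower. Rescaled, the same 3 were higher and Msmo1 alone was lower, and without LPS replicate 1 the count fell from 7 to 4. In IFNb against saline Ch25h was higher and the other 7 lower, where 51.6% of all genes were called, 13% higher and 38.6% lower, and rescaled 4 were lower: Hmgcs1, Fdft1, Sqle and Msmo1. Without IFNb replicate 1 the count fell from 8 to 5. For LPS+IFNb against saline, 1 was higher and 5 lower, beside 69.4% of all genes called (15.2% higher, 54.1% lower). Rescaling gave 2 higher (Ch25h, Insig1) and 3 lower (Fdft1, Sqle, Msmo1). Rescaled, 20% of all genes were called higher and 16.7% lower in LPS, 17.8% and 14.1% in IFNb, and 26.6% and 24.9% in LPS+IFNb. The 3 comparisons share the saline libraries and are not independent of each other.

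Adding IFNb before LPS, compared with LPS alone, gave 1 gene higher (Ch25h) and 6 lower, all but Insig1, where 34.8% of all genes were called, 10.8% higher and 24.1% lower. The falls were -0.56 ± 0.14 for Hmgcs1 (limma adjusted p = 0.0256; rescaled -0.31), -1.11 ± 0.24 for Idi1 (adjusted p = 0.0130; rescaled -0.89), -0.92 ± 0.16 for Fdft1 (rescaled -0.75), -0.97 ± 0.22 for Sqle (rescaled -0.77) and -0.88 ± 0.09 for Msmo1 (rescaled -0.63), besides Srebf2. Rescaled, Fdft1, Sqle, Msmo1 and Srebf2 stayed lower in the test, where 9.9% of all genes were called lower and 14.4% higher. Without LPS replicate 1 the count fell from 7 to 4, with Hmgcs1 (-0.38), Sqle (-1.004) and Idi1 (-0.79) lost. Leaving out LPS+IFNb replicate 1 also ended the calls of Hmgcs1 (-0.59) and Idi1 (-0.97), LPS+IFNb replicate 2 those of Hmgcs1 (-0.52) and Sqle (-0.83), and LPS replicate 2 that of Sqle (-0.93). LPS after IFNb, compared with IFNb alone, gave 2 higher (Ch25h, Insig1) and 2 lower (Msmo1 and Fdft1), beside 39.3% of all genes called (8.76% higher, 30.5% lower). Msmo1 fell by -1.09 ± 0.09 (limma adjusted p = 0.000412; rescaled -0.78). Fdft1 (-0.50 ± 0.16, adjusted p = 0.0442; rescaled -0.28) kept its call in 3 of 16 alternatives and lost it without each single library (-0.60 to -0.40). Sqle (-0.64 ± 0.22, adjusted p = 0.0559; rescaled -0.38) was not called, but was without IFNb replicate 2 (-0.94). Without LPS+IFNb replicate 1 the count fell from 4 to 2.

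Set directly against each other, LPS and IFNb differed in 4 genes, all higher in LPS: Hmgcs1 (0.72 ± 0.14, limma adjusted p = 0.00800; rescaled 0.79), Idi1 (0.85 ± 0.24, adjusted p = 0.0294; rescaled 0.92), Insig1 (0.91 ± 0.12, adjusted p = 0.00119; rescaled 0.98) and Srebf2. Of all genes 38.7% were called, 16.6% higher in LPS and 22.1% lower. The count fell to 2 without IFNb replicate 1, where Hmgcs1 (0.65) and Idi1 (0.83) were lost, and Idi1 was also lost without LPS replicate 1 (0.53) or IFNb replicate 2 (0.88). In the interaction only Ch25h was called among the 8 genes, as lower, beside 7.96% of all genes (3.51% higher, 4.45% lower).

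**Figure D2:**
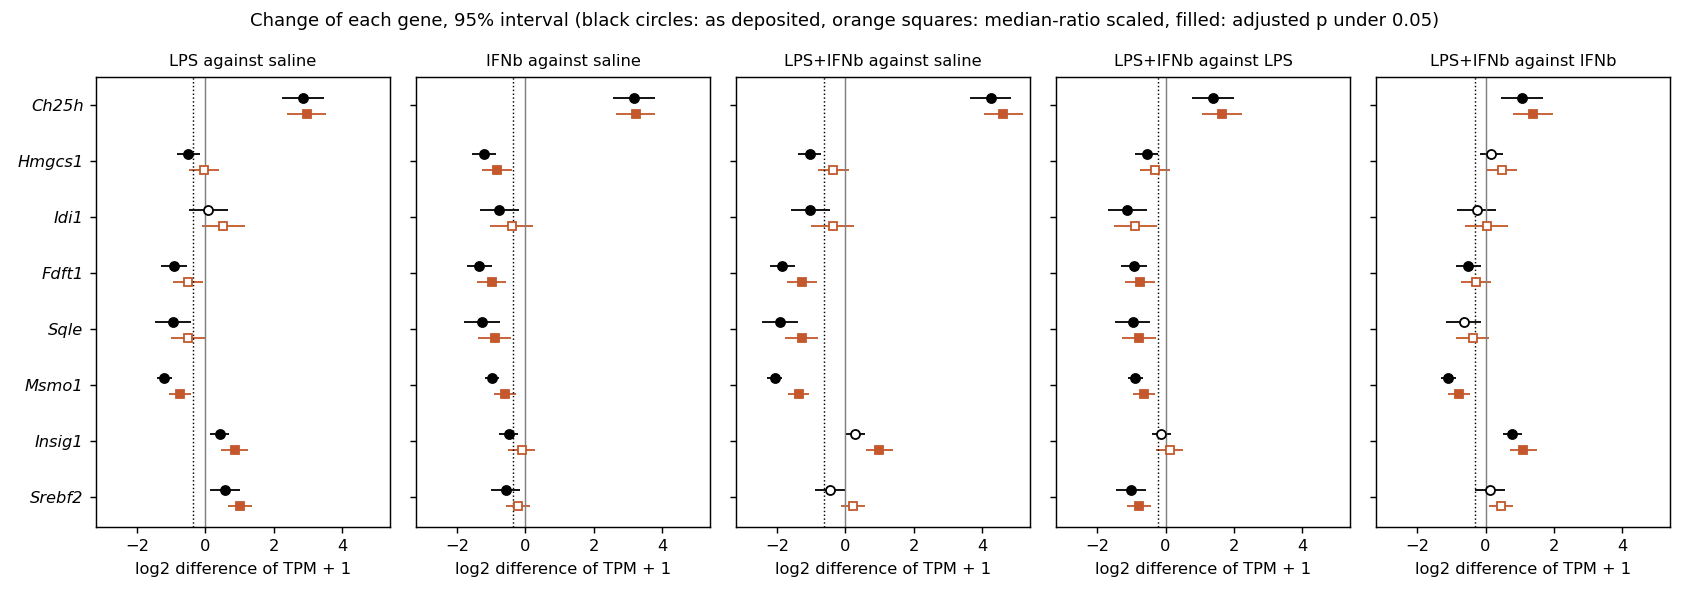
Log2 difference of TPM + 1 (horizontal axis) for the 8 genes in 5 comparisons, as deposited (black circles) and after median-ratio scaling (orange squares), with 95% intervals. Filled symbols have an adjusted p under 0.05, and the dotted line is the median of all genes tested as deposited. Ch25h lies to the right in every panel, while Hmgcs1 in LPS against saline moves from -0.50 to -0.05 on rescaling.

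The rest of the pathway was read from a list of 16 further synthesis enzymes, all tested. None rose against saline: 10 fell in LPS (median of the 16, -0.67), 9 in IFNb (median -0.67) and 15 in LPS+IFNb (median -1.10), all but Acat2, the acetoacetyl-CoA thiolase. Rescaled, the falls were 6, 4 and 6, and without LPS replicate 2 the count in LPS was 6. As shares of the list the falls were 62.5%, 56.2% and 93.8%, where 41.3%, 38.6% and 54.1% of all genes fell (medians -0.38, -0.37 and -0.62), and rescaled 37.5%, 25% and 37.5%, where 16.7%, 14.1% and 24.9% of all genes fell. Dhcr7, which makes cholesterol from its last precursor in one branch, went from 23.8 and 22.2 TPM in saline to 8.14 and 5.99 TPM in LPS, 6.87 and 5.45 TPM in IFNb and 5.56 and 3.38 TPM in LPS+IFNb. Its falls were -1.59 ± 0.23, -1.75 ± 0.23 and -2.16 ± 0.23 (limma adjusted p = 0.00191, 0.00143 and 0.000269), and after rescaling -1.15, -1.38 and -1.52, all called. Sc5d, the sterol desaturase just before it, went from 44.5 and 40.4 TPM in saline to 15.8 and 15.7 TPM in LPS, 22.0 and 17.6 TPM in IFNb and 15.2 and 12.8 TPM in LPS+IFNb (-1.37, -1.07 and -1.54; rescaled -0.92, -0.69 and -0.85, all called).

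Some enzymes differed between the 2 agents, though no more often than genes at large. In LPS against IFNb 12.5% of the 16 were called higher and 18.8% lower, beside 16.6% and 22.1% of all genes. Rescaled, these shares were 12.5% and 12.5%, beside 17.5% and 19.2% of all genes. In LPS Pmvk (phosphomevalonate kinase, -1.22; rescaled -0.81), Tm7sf2 (a sterol reductase, -1.15; rescaled -0.77) and Lss (lanosterol synthase, -1.47; rescaled -1.06) passed the test against saline, and in IFNb they stood at -0.23, -0.21 and -0.91, not called (rescaled 0.13, 0.13 and -0.55). LPS minus IFNb was called lower for Pmvk (-0.99 ± 0.17, limma adjusted p = 0.00400; rescaled -0.94) and Tm7sf2 (-0.94, adjusted p = 0.00870; rescaled -0.89), not for Lss (-0.57, adjusted p = 0.211). The reverse was seen for Acat2, which was lower in IFNb than in LPS (LPS minus IFNb 0.81; rescaled 0.86, both called). Mvd, the mevalonate diphosphate decarboxylase, was also lower in LPS than in IFNb (-0.43, adjusted p = 0.0484), a call that ended on rescaling (-0.38) and in 11 of 16 alternatives.

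**Figure D3:**
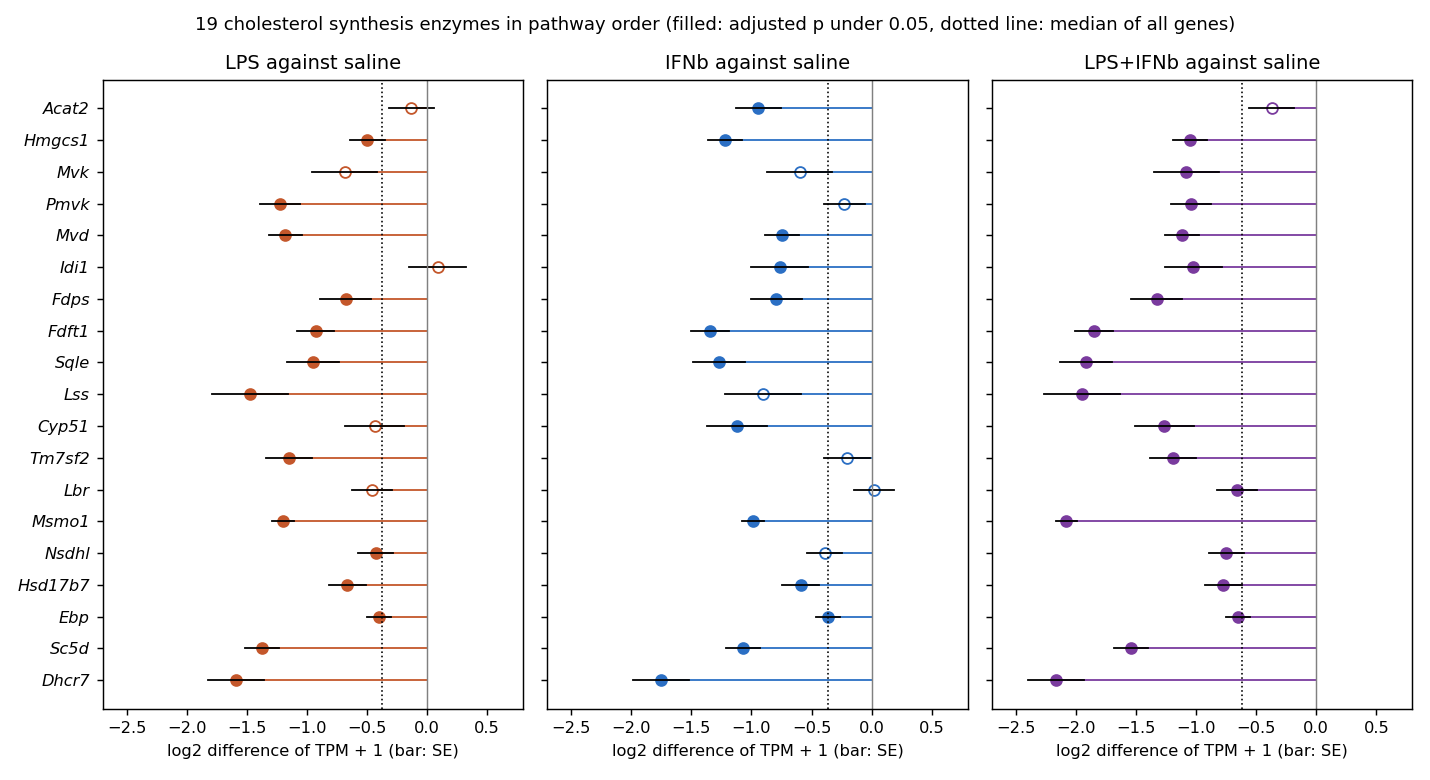
Log2 difference of TPM + 1 from saline (horizontal axis, bars are standard errors) for 19 cholesterol synthesis enzymes in pathway order from top to bottom, in LPS, IFNb and LPS+IFNb. Filled points have an adjusted p under 0.05 and the dotted line is the median of all genes. In LPS+IFNb all points but Acat2 are filled and to the left of 0 as deposited, while rescaling moves all points right and takes past 0 Acat2 (0.19), Ebp (0.061) and Lbr (0.0093) there, Acat2, Cyp51 and Ebp in LPS, and Pmvk, Tm7sf2 and Ebp in IFNb.

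Summed over the 21 enzymes, the TPM was 509 and 475 in saline, 330 and 282 in LPS, 285 and 297 in IFNb, and 204 and 209 in LPS+IFNb. As deposited, saline was the highest and LPS+IFNb the lowest with no overlap, while LPS and IFNb overlapped, and Ch25h ran in the opposite order. These sums were not rescaled. The median-ratio factors, by which TPM is divided, were 1.24 and 1.43 in saline, 0.950 and 0.983 in LPS, 1.03 and 0.999 in IFNb, and 0.798 and 0.816 in LPS+IFNb. Rescaling would thus lower the saline sums and raise those of LPS+IFNb, so the separation of the groups is stated for deposited TPM only. Other sums moved with the groups. The 8 monocyte and small macrophage markers summed to 277 and 709 TPM in saline, 631 and 1045 TPM in LPS, 1052 and 956 TPM in IFNb, and 791 and 726 TPM in LPS+IFNb. Of these Plac8 averaged 22.6 TPM in saline and 346 TPM in IFNb, and Vcan 3.81 and 162 TPM. Not all did so: Ccr2 averaged 32.8 TPM in saline and 23.1 TPM in IFNb, and F13a1 73.9 and 76.8 TPM. In IFNb against saline 3 of the 8 were called higher and 0 lower, with a median log2 difference of 0.04. The 8 large peritoneal macrophage markers summed to 1216 to 1327 TPM in saline, 1162 to 1198 in LPS, 818 to 829 in IFNb and 769 to 842 in LPS+IFNb. Most of that sum was Cd9, which averaged 1169, 1103, 746 and 733 TPM in the same order. In LPS against IFNb 1 of these 8 was called higher and 0 lower. The 8 dendritic cell markers summed to 12.2 to 14.7 TPM in saline and 24.8 to 27.4 in LPS+IFNb. The 8 B cell markers summed to 151 to 162 TPM in saline and 66.7 to 89.6 TPM elsewhere, and the 10 macrophage markers to 19577 to 22225 TPM in saline, 18544 to 19026 in LPS, 16465 to 16747 in IFNb and 15048 to 15390 in LPS+IFNb. In bulk RNA, fewer cells of a type and less RNA per cell cannot be told apart, and the part of these shifts in the enzyme and Ch25h values was not tested. Mesothelial and fibroblast markers (33.3 to 105 TPM) were high in 1 library of each group (Saline replicate 2, LPS replicate 2, IFNb replicate 1 and LPS+IFNb replicate 1), and the neutrophil markers Camp and Ly6g and the eosinophil marker Epx were listed at 0 in some libraries.

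**Figure D4:**
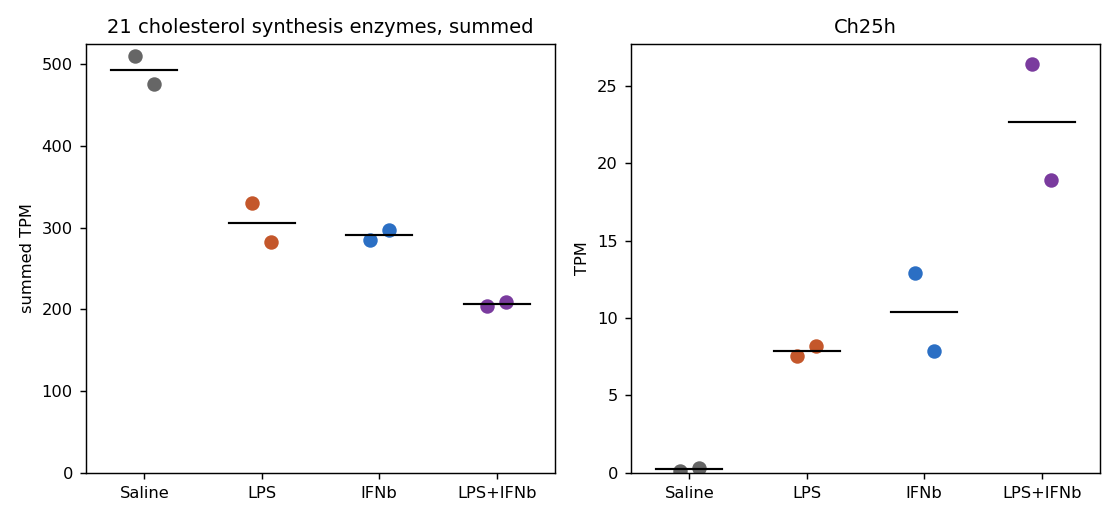
Summed TPM of 21 cholesterol synthesis enzymes (left) and TPM of Ch25h (right) in the 4 groups, with a point per library and a line at the mean of 2, both axes linear from 0. As deposited and not rescaled, the enzyme sum is 509 and 475 TPM in saline and 204 and 209 TPM in LPS+IFNb, the groups in which Ch25h is lowest and highest.

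The SREBP control list held 16 genes, 15 of them tested. As deposited 3 rose and 5 fell in LPS, 1 rose and 7 fell in IFNb, and 3 rose and 8 fell in LPS+IFNb, against saline. Rescaled these became 6 and 2, 3 and 3, and 4 and 3, so the balance in LPS depended on the scaling. The falls were 33.3%, 46.7% and 53.3% of the list, near the 41.3%, 38.6% and 54.1% of all genes. The rises were 20%, 6.67% and 20%, beside 12.8%, 13% and 15.2% of all genes. Rescaled, the rises were 40%, 20% and 26.7%, beside 20%, 17.8% and 26.6% of all genes. The rescaled falls were 13.3%, 20% and 20%, beside 16.7%, 14.1% and 24.9%. Gramd1a, an endoplasmic reticulum protein that carries cholesterol in from the plasma membrane, went from 15.5 and 21.4 TPM in saline to 92.3 and 119 TPM in LPS, 7.70 and 9.77 TPM in IFNb and 113 and 112 TPM in LPS+IFNb. It rose in LPS (2.46; rescaled 2.90) and fell in IFNb (-0.99; rescaled -0.62), and LPS minus IFNb was 3.45 (limma adjusted p = 3.78e-05; rescaled 3.52). Rnf139, a ubiquitin ligase of the endoplasmic reticulum that acts on sterol pathway proteins, rose in all 3 groups, from 15.1 and 15.6 TPM in saline to 23.8 and 23.2 TPM in LPS, 55.3 and 51.7 TPM in IFNb and 50.6 and 48.2 TPM in LPS+IFNb (0.58, 1.74 and 1.62; rescaled 1.01, 2.10 and 2.31). Fbxw7, which marks nuclear SREBPs for degradation, fell in LPS (-1.51; rescaled -1.08) and LPS+IFNb (-1.43; rescaled -0.77), and Mbtps1, the site-1 protease that cleaves SREBPs, fell in all 3 (-0.83, -0.82 and -1.55; rescaled -0.40, -0.45 and -0.90). Scap, Srebf1 (SREBP-1) and Insig2 were not called in any comparison with all 8 libraries. Insig2, a relative of Insig1, was at 126 and 123 TPM in saline and 57.2 and 63.2 TPM in LPS, 94.3 and 43.2 TPM in IFNb and 89.2 and 55.0 TPM in LPS+IFNb. Its fall in LPS (-1.04, limma adjusted p = 0.0514) gained the call in 5 of 16 alternatives, among them without either IFNb library. The falls of Insig2 from saline in IFNb and in LPS+IFNb gained it in 2 and 3 of 16. Scap (0.43) and Srebf1 (0.47) were called higher in LPS than in IFNb without either saline library.

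Of 13 genes of sterol uptake and trafficking 10 were tested. Against saline 1 rose and 7 fell in LPS, 2 rose and 7 fell in IFNb, and 1 rose and 7 fell in LPS+IFNb (rescaled 2 and 3, 2 and 2, and 2 and 5). The falls were 70% of the list in each, beside 41.3%, 38.6% and 54.1% of all genes, and rescaled 30%, 20% and 50%, beside 16.7%, 14.1% and 24.9%. Stard4, a sterol carrier (-0.98, -1.41 and -1.39; rescaled -0.58, -1.07 and -0.80), fell in all 3 groups under both scales, as did Scarb1, a lipoprotein receptor, in LPS (-1.10; rescaled -0.65) and LPS+IFNb (-1.57; rescaled -0.89). Npc2, a lysosomal cholesterol carrier, rose in IFNb (0.52; rescaled 0.92) and LPS+IFNb (0.42; rescaled 1.14). Its partner Npc1 was called lower in all 3 groups as deposited (-0.72, -0.70 and -1.41, the last -0.70 when rescaled).

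Among 14 genes that handle oxysterols and sterol esters 9 were tested, and none rose against saline, while 6 fell in LPS, 6 in IFNb and 7 in LPS+IFNb (rescaled, 0 higher and 3 lower, 1 and 2, and 2 and 3). The falls were 66.7%, 66.7% and 77.8% of those tested, beside 41.3%, 38.6% and 54.1% of all genes, and rescaled 33.3%, 22.2% and 33.3%, beside 16.7%, 14.1% and 24.9%. Soat1, which esterifies cholesterol for storage, went from 853 and 833 TPM in saline to 392 and 364 TPM in LPS, 481 and 516 TPM in IFNb and 259 and 248 TPM in LPS+IFNb (-1.16, -0.76 and -1.73; rescaled -0.69, -0.36 and -1.01, the middle one not called). Gpr183, the receptor for an oxysterol made from the product of CH25H, was at 9.04 and 7.99 TPM in saline, 3.52 and 4.51 TPM in LPS, 1.31 and 1.59 TPM in IFNb, and 4.63 and 3.57 TPM in LPS+IFNb. It fell most in IFNb (-1.96 ± 0.18, limma adjusted p = 0.000313; rescaled -1.61), and LPS+IFNb was above IFNb (1.05, adjusted p = 0.00603; rescaled 1.32). Cyp7b1, the hydroxylase that acts on 25-hydroxycholesterol, stayed between 0.144 and 1.32 TPM and was not tested, while Hsd3b7, which inactivates that ligand of Gpr183, fell in all 3 groups (-1.62, -1.10 and -2.07; rescaled -1.17, -0.71 and -1.36). Cyp27a1, a mitochondrial sterol hydroxylase, was at 31.1 and 29.0 TPM in saline, 9.08 and 7.52 TPM in LPS, 34.0 and 47.8 TPM in IFNb, and 15.5 and 16.1 TPM in LPS+IFNb. It fell in LPS (-1.74; rescaled -1.30), and LPS minus IFNb was -2.16 (limma adjusted p = 0.000156; rescaled -2.09).

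The isoprenoid branch, which leads from the same intermediates to coenzyme Q, dolichol and prenylated proteins, had 11 genes, all tested. Against saline 1 rose and 6 fell in LPS, 2 rose and 4 fell in IFNb, and 1 rose and 9 fell in LPS+IFNb (rescaled 1 and 1, 2 and 0, and 2 and 2). The falls were 54.5%, 36.4% and 81.8% of the list, beside 41.3%, 38.6% and 54.1% of all genes, and rescaled they were fewer than the share of all genes (9.09%, 0% and 18.2%, beside 16.7%, 14.1% and 24.9%). The riser in all 3 was Pdss1, which makes the side chain of coenzyme Q, from 3.18 and 3.48 TPM in saline to 10.5 and 8.84 TPM in LPS, 11.1 and 13.1 TPM in IFNb and 14.0 and 16.4 TPM in LPS+IFNb (1.30, 1.59 and 1.90; rescaled 1.65, 1.88 and 2.50). Coq2, which attaches that chain, rose in IFNb (15.9 and 17.6 TPM in saline, 35.3 and 38.0 TPM in IFNb; 1.09, rescaled 1.45). Fnta, the subunit shared by the farnesyl and geranylgeranyl transferases, was called lower in all 3 groups as deposited (-0.66, -0.68 and -1.53, the last -0.84 when rescaled). Of 13 fatty acid synthesis genes known as SREBP-1 targets 11 were tested: none rose and 6 fell in LPS, 2 rose and 7 fell in IFNb, and none rose and 7 fell in LPS+IFNb (rescaled 0 and 2, 2 and 3, and 1 and 5). The falls were 54.5%, 63.6% and 63.6% of those tested, beside 41.3%, 38.6% and 54.1% of all genes, and rescaled 18.2%, 27.3% and 45.5%, beside 16.7%, 14.1% and 24.9%. Fads1, a fatty acid desaturase, fell in all 3, from 13.1 and 15.1 TPM in saline to 7.12 and 6.30 TPM in LPS, 3.43 and 2.82 TPM in IFNb and 1.37 and 1.36 TPM in LPS+IFNb (-0.97, -1.87 and -2.67; rescaled -0.54, -1.51 and -2.10). Acss2, which makes acetyl-CoA from acetate, rose in IFNb (1.19; rescaled 1.45), from 2.25 and 2.54 TPM in saline to 5.95 and 7.67 TPM. The other gene counted as higher in IFNb was Acacb, an acetyl-CoA carboxylase, which reached 1 TPM only in the 2 IFNb libraries (1.45 and 1.96 TPM), so the filter itself fixed that it would differ and its call supports nothing.

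The genes whose profiles over the 8 libraries lay nearest to Ch25h, among 7029 well-expressed genes and by the root mean square difference of centred log2(TPM + 1), were Il15 (0.19), Casp4 (0.29), Tagap (0.31), Hdc (0.32) and Sp140 (0.39). Il15, which encodes a cytokine for lymphocytes, averaged 10.3 TPM in saline, 71.9 TPM in LPS, 88.6 TPM in IFNb and 190 TPM in LPS+IFNb, and Hdc, histidine decarboxylase, averaged 0.912, 15.5, 14.2 and 26.2 TPM in the same order. Nearest to the mean profile of the 5 enzymes, among 7026 genes, were Tmem41b (0.03), Vkorc1l1 (0.04), Aldh3b1 (0.05), Gngt2 (0.07) and Zfp326 (0.08). Tmem41b averaged 62.2 TPM in saline, 38.7 TPM in LPS, 27.2 TPM in IFNb and 20.2 TPM in LPS+IFNb. Ch25h itself averaged 0.231, 7.86, 10.4 and 22.7 TPM in that order. Adding 1 to TPM understates the rise of a gene this low, so its nearest genes depend on that added 1 and need not share its fold change. These likenesses rest on 4 group means with 2 libraries each, and TPM in one library share a sum.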

How the data were processed

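The authors deposited, for each of 8 libraries, TPM values of 88198 Ensembl transcripts. kallisto and the mm10 build are named in the submitters' processing notes, and the sources used here give neither their versions nor the strand setting. TPM keeps no depth, so precision was judged from the spread between 2 libraries a group. Transcripts were joined to GENCODE M21 (GRCm38, the same assembly as mm10): 86119 matched, and the 2079 that did not held 1.01% to 1.95% of the TPM of a library. TPM was summed over all transcripts of a gene. The 13009 of 30284 genes that reached 1 TPM in 2 or more libraries were fitted on log2(TPM + 1) with limma 3.58.1 (R 4.3.3), with an intensity trend, 1 mean per group, 4 residual and 2.54 prior degrees of freedom. The 7 contrasts were tested, each Benjamini-Hochberg adjusted over all genes at 0.05. The procedure was tested on simulated data first. Python 3.11.15, pandas 2.3.3 and matplotlib 3.10.9 were used for tables and plots.

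The genes and lists were chosen with earlier results of these data known. From each list, up to 4 called genes per direction and comparison with the smallest adjusted p were eligible to be named, together with Srebf1, Scap, Insig2, Cyp7b1, Gpr183 and Soat1 whatever their p. Lss was named after its values were seen, and some genes of the lists, though counted in them, are not reported here. The 5 nearest profiles were named among genes whose log2(TPM + 1) averaged 3 or more. Alternatives were median-ratio and upper-quartile scaling, a pseudocount of 0.1, no filter, a filter at 5 TPM, the replicate number as a block, protein-coding transcripts, each library left out, and fits to the 2 groups compared. No count model was used, since no counts were analysed here.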

Additional observations from a re-analysis of the deposited data

Results flagged for a closer look

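For 7 of the 80 genes tested among the 8 genes and the sterol lists (8.75%, beside 7.96% of all genes, so near the background), the response to both agents differed from the sum of the single responses on the log2 scale by the interaction test (limma, adjusted over 13009 genes, 2 libraries a group). Ch25h (-1.78 ± 0.36, adjusted p = 0.0344), Pdss1 (-0.99, adjusted p = 0.0405), Coq2 (-0.90, adjusted p = 0.0297) and Rnf139 (-0.69, adjusted p = 0.0219) were lower in LPS+IFNb than that sum. Higher than it were Sc5d (0.91, adjusted p = 0.0444), Stard4 (1.00, adjusted p = 0.0429) and Gpr183 (1.98, adjusted p = 0.00617). Gpr183 kept its call in all 15 alternatives run (1.84 after median-ratio scaling). The call was lost in 10 of 15 for Ch25h, 11 for Pdss1, 7 for Coq2, 6 for Rnf139, 12 for Sc5d and 14 for Stard4. The LPS+IFNb group was taken 4 h later after IFNb than the IFNb group, and the part of time in these values was not tested.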

How the results depend on the processing

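With 2 libraries a group and no depth, precision rests on a spread shared by all groups; where 1 library was left out, the lone library was assumed to vary like the others. Over the 8 genes, 785 of their values under the alternatives kept direction and side of the threshold, 84 lost the call, 9 gained it and 10 turned sign; for the other named genes these were 2521, 273, 25 and 29. The Ch25h calls against saline and in LPS+IFNb against LPS held in all 16.

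Of the 8 genes, the number called moved from 7 to 4 in LPS against saline (median-ratio scaling, and the fit to those groups alone), from 8 to 5 in IFNb against saline (both scalings) and from 1 to 0 in the interaction of LPS and IFNb (upper quartile, no filter, replicate block). With 1 library left out the counts were 4 to 7 for LPS against saline, 5 to 8 for IFNb against saline, 6 to 8 for LPS+IFNb against saline, 4 to 7 for LPS+IFNb against LPS, 2 to 3 for LPS+IFNb against IFNb (4 with all), 2 to 4 for LPS against IFNb and 0 to 1 for the interaction. For the other cholesterol synthesis enzymes, median-ratio and upper-quartile scaling gave 6 and 6 calls (10 as deposited) in LPS against saline, 4 and 5 (of 9) in IFNb against saline, 6 and 7 (of 15) in LPS+IFNb against saline, 1 and 1 (of 3) in LPS+IFNb against LPS, 2 and 2 (of 5) in LPS+IFNb against IFNb, and 0 and 0 (of 1) in the interaction. No filter gave 1, 3 and 0 in the last 3, protein-coding transcripts 5 in LPS+IFNb against LPS and 3 in the interaction, the 5 TPM filter 3 (of 5) in LPS against IFNb, and a pseudocount of 0.1 gave 0 in the interaction. With 1 library left out these counts were 6 to 10, 6 to 10, 12 to 15, 0 to 3, 0 to 6, 1 to 6 (LPS against IFNb) and 0 to 0. The 0 in LPS+IFNb against LPS came without LPS replicate 1 (1 without LPS+IFNb replicate 2), the 0 in LPS+IFNb against IFNb and the 1 in LPS against IFNb without IFNb replicate 1. Across all genes, median-ratio scaling changed the calls from 1664 higher and 5368 lower to 2601 and 2167 in LPS, from 1697 and 5020 to 2321 and 1829 in IFNb, and from 1980 and 7042 to 3459 and 3234 in LPS+IFNb.

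Replicate numbers did not pair the libraries (correlations of deviations -0.156 to 0.141). With the replicate block the interaction count of the 8 genes was 0 (Ch25h adjusted p = 0.0506), that of the other enzymes 2, and Fdft1 in LPS+IFNb against IFNb lost its call (adjusted p = 0.0681).

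Signs turned under median-ratio and upper-quartile scaling for Srebf2 (0.23 and 0.18), Srebf1 (0.55 and 0.50), Ebp (0.061 and 0.012) and Osbpl8 (0.055 and 0.0053) in LPS+IFNb against saline, Insig1 (0.13 and 0.13) in LPS+IFNb against LPS, Idi1 (0.031 and 0.017) in LPS+IFNb against IFNb, and Vcp (0.10 and 0.052) in LPS against saline. Median-ratio scaling alone turned Srebf1 (0.015), Scap (0.0044) and Nus1 (0.020) in IFNb against saline, and Msmo1 (-0.035) and Srebf1 (-0.023) in the interaction; protein-coding transcripts turned Srebf1 in LPS against saline (-0.13) and LPS+IFNb against IFNb (-0.018). Leaving out 1 library turned, in LPS against saline, Idi1 (-0.23 to 0.41), Srebf1 (-0.33 to 0.54) and Scap (-0.32 to 0.50); in IFNb against saline Srebf1 (-0.80 to 0.068) and Scap (-0.76 to 0.071); in LPS+IFNb against saline Srebf1 (-0.59 to 0.28). It also turned Insig2 (-0.13 to 0.56) and Gpr183 (-0.13 to 0.17) in LPS+IFNb against LPS, Srebf2 (-0.0023 to 0.26) and Insig2 (-0.42 to 0.69) in LPS+IFNb against IFNb, Insig2 (-0.64 to 0.47) in LPS against IFNb, and Srebf1 (-0.33 to 0.54) and Scap (-0.80 to 0.026) in the interaction. Beyond the scaling itself, the cause was not tested.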
